A study of Homo sapiens with 18 samples.

Results

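The HERC genes encode ubiquitin ligases that join a carboxy-terminal HECT domain, which passes ubiquitin or a ubiquitin-like protein to a substrate, to amino-terminal RCC1-like repeats. HERC1 and HERC2 are giant proteins, and HERC3, HERC4, HERC5 and HERC6 are small ones with a single RCC1-like domain. HERC5 is the main human ligase for ISG15, the ubiquitin-like protein that interferon induces, and in mouse Herc6 takes that part. The 6 genes were found by their symbols, HERC1 to HERC6, among the 20145 genes of the count table, and all 6 had enough counts to be tested. HERC3 is listed among androgen-induced genes, and HERC5 and HERC6 among interferon-induced genes.

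RNA was sequenced from LNCaP cells, a human line from a metastasis of prostate adenocarcinoma that carries an androgen receptor and grows in response to androgen. Cells were held for 72 h in 1 µM of 2-77, ACBI at 0.2 µM, BD98 at a dose of 2 µM, 10 µM of P-16, the same dose of ENZA, or DMSO, the vehicle, with 3 libraries in each of the 6 groups. ENZA is enzalutamide, a drug that blocks the androgen receptor, the series title speaks of selective inhibitors of the BRD7 bromodomain, and what the other compounds bind is not in the labels. All groups were the same line in medium with whole serum, so the DMSO cells met any androgen in that serum, whose level was not measured here. The labels do not say whether replicates were separate cultures, and p-values therefore measure the spread between these libraries, which may be technical. P-16 and ENZA were used at the same dose and the other compounds each at their own, so compounds and doses cannot be told apart in most contrasts between them.

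The libraries held 16835113 to 36975052 counts. Of the luminal prostate markers, 7 of 7 were above 1 CPM (a gene's counts scaled by the size of its library) in every group, and their sum was 4008 to 4211 CPM in ACBI libraries, 4720 to 6535 CPM in libraries of the other 4 compounds and 8526 to 8589 CPM in DMSO libraries; the list holds KLK3, which is androgen-induced. The sums stayed at or below 7.22 CPM for 4 measured immune markers and 2.15 CPM for 2 measured basal markers in all libraries. The 3 measured endothelial markers summed to 5.73 to 6.71 CPM in 2-77, 0.58 to 0.913 CPM in ACBI, 56.1 to 57.4 CPM in BD98, 14.6 to 16.5 CPM in P-16, 5.00 to 6.95 CPM in ENZA and 20.9 to 23.0 CPM in DMSO libraries. The 4 measured neuroendocrine markers summed to 115 to 118 CPM in 2-77, 81.4 to 89.4 CPM in ACBI, 68.8 to 75.4 CPM in BD98, 92.3 to 93.4 CPM in P-16, 55.6 to 61.8 CPM in ENZA and 42.4 to 44.9 CPM in DMSO libraries, so every treated library lay above DMSO. The 4 measured stromal markers summed to 17.8 to 18.6 CPM in 2-77 libraries, 11.6 to 15.6 CPM in those of the other compounds and 13.2 to 14.04 CPM in DMSO libraries. The part of these markers in the results was not tested. ACBI replicate 3 held 8.60% ribosomal RNA, against 0.639% to 2.09% elsewhere, and the HERC calls of ACBI against DMSO were the same without it. In bulk RNA, a change in the RNA of each cell and a change in which cells are present cannot be told apart.

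Of the 6 genes, 3 rose and 1 fell with 2-77, 4 rose and 1 fell with ACBI, 3 rose and 2 fell with BD98, 1 rose and 2 fell with P-16, and 2 rose and 1 fell with ENZA, each against DMSO (edgeR quasi-likelihood test, adjusted p under 0.05). Many genes were called in these contrasts: 40.7% of all 15422 genes tested with 2-77, 72.0% with ACBI, 49.0% with BD98, 24.0% with P-16 and 36.3% with ENZA. Without DMSO replicate 1 the 4 calls with 2-77 became 2, and without P-16 replicate 1 the 3 calls with P-16 became 1. The number of HERC genes called is to be read against those shares. By direction, the background was 20.5% higher and 20.2% lower with 2-77, 35.4% and 36.6% with ACBI, 24.5% and 24.5% with BD98, 12.4% and 11.6% with P-16, and 18.2% and 18.1% with ENZA. The members moved in different contrasts. HERC3 fell with the 4 compounds other than ACBI, and HERC4, HERC5 and HERC6 changed by at least 2-fold with ACBI and by less with each of the others. A change of that size was found in 4.64% of genes with 2-77, 20.8% with ACBI, 5.40% with BD98, 1.93% with P-16 and 3.84% with ENZA. The contrasts with DMSO share its 3 libraries.

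**Figure D1:**
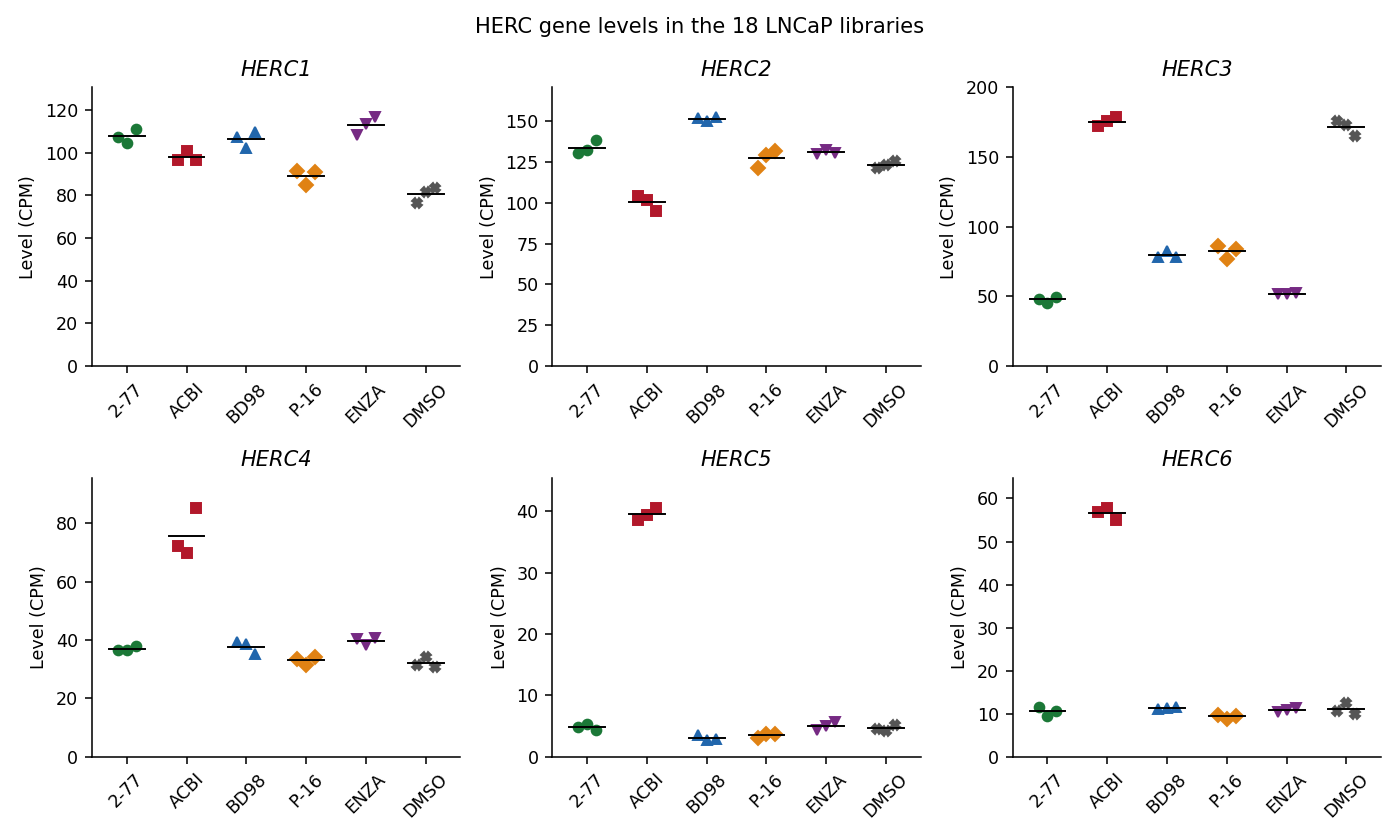
Level of each HERC gene in CPM (counts scaled to library size, linear axis from 0) in the 18 libraries; each symbol is a library and each line a group mean of 3. HERC3 stood at 45.4 to 86.3 CPM with 2-77, BD98, P-16 and ENZA and at 165 to 179 CPM with ACBI and DMSO, while HERC5 and HERC6 stood high in the 3 ACBI libraries alone.

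HERC6, HERC5 and HERC3 lie in that order, all on the plus strand, within a short stretch of chromosome 4, with HERC6 at chr4:88378852-88443097, HERC5 at chr4:88457119-88506163 and HERC3 at chr4:88523843-88708537 (hg38, as deposited). The gap is 14021 bases between HERC6 and HERC5 and 17679 bases between HERC5 and HERC3. Bases upstream of their RefSeq starts (GRCh38.p14, plus strand, 5′ to 3′, up to the first base that GENCODE 29 puts in an exon) are shown because the 3 neighbours had different patterns. They cover chr4:88456869-88457116 for HERC5, chr4:88378602-88378738 for HERC6 and chr4:88592230-88592422 for the second of 2 RefSeq starts of HERC3. Capitals mark matches to GAAA, any 2 bases and GAAA again, the core of the interferon-stimulated response element, read on the minus strand.
HERC5: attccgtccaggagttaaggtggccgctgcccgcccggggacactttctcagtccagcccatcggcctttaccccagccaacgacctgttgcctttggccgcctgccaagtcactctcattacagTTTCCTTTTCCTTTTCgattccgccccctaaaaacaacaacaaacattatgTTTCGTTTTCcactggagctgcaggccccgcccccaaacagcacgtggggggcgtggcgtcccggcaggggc
HERC6: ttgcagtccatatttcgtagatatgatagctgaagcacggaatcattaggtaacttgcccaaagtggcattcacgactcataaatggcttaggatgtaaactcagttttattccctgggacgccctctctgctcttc
HERC3: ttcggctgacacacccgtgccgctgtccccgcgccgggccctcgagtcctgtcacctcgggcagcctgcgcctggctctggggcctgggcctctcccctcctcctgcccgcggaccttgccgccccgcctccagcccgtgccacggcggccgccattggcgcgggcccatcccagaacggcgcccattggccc

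The HERC5 window of 250 bases before to 50 bases after the start held 3 matches to that pattern, at -125 to -116, -119 to -110 and -74 to -65 from the start, the first 2 of which overlap. At least 1 match was present in 3.57% of 35116 RefSeq promoter windows of the same length, and 3 or more in 0.037% (13 windows). No window of HERC1, HERC2, HERC3, HERC4 or HERC6 held a match on either strand to this motif. None of the 6 genes' windows held TTCNNNGAA (a STAT site, in 7.66% of all windows), AGAACA followed by any 3 bases and TGTTCT (an androgen response element, 0.00285%) or AGAACA alone (14.8%), both strands searched. A match is a description of letters, and its absence says only that the letters are not in the window.

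HERC3, which binds ubiquitin and is known to restrain NF-kB signalling, was lower with every compound other than ACBI. It stood at 48.5, 45.4 and 49.5 CPM in 2-77 libraries, 172, 176 and 179 CPM in ACBI libraries, 78.5, 82.8 and 78.6 CPM in BD98 libraries, 86.3, 76.8 and 83.8 CPM in P-16 libraries, 51.7, 51.6 and 52.5 CPM in ENZA libraries, and 176, 173 and 165 CPM in DMSO libraries. The 12 libraries of 2-77, BD98, P-16 and ENZA all lay below the 3 DMSO libraries, and the ACBI libraries overlapped DMSO. HERC3 fell 3.58-fold with 2-77 (log2 fold change -1.84 ± 0.047 SE, edgeR adjusted p = 2.25e-23, n = 3 per group). With ENZA the fall was 3.30-fold (-1.72 ± 0.046, edgeR adjusted p = 1.10e-22). BD98 gave a fall of 2.14-fold (-1.10 ± 0.045, edgeR adjusted p = 2.80e-18) and P-16 one of 2.08-fold (-1.06 ± 0.045, edgeR adjusted p = 3.62e-17). Among all genes tested, 1.37% changed by more with 2-77 than HERC3 did. With ACBI the difference was 0.03 ± 0.043 (edgeR adjusted p = 0.495), with a 95% interval of -0.06 to 0.12.

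HERC3 thus took 3 levels, lowest with 2-77 and ENZA, next with BD98 and P-16, and highest with ACBI and DMSO, and direct contrasts tested the steps between the compounds. It was lower in 2-77 than in BD98 libraries (-0.74 ± 0.047, edgeR adjusted p = 1.25e-13) and lower in 2-77 than in P-16 libraries (-0.78 ± 0.047, edgeR adjusted p = 2.06e-13). It was higher in BD98 than in ENZA libraries (0.62 ± 0.047, edgeR adjusted p = 5.67e-12) and higher in P-16 than in ENZA libraries (0.66 ± 0.047, edgeR adjusted p = 5.56e-12); the last pair shared a dose of 10 µM. Within the steps no difference passed. For 2-77 against ENZA it was -0.12 (95% interval -0.22 to -0.02, edgeR adjusted p = 0.183), and for BD98 against P-16 it was -0.04 (-0.14 to 0.05, edgeR adjusted p = 0.483). A p that misses the threshold does not show equal levels.

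Other androgen-induced genes give the setting for HERC3. Of 29 listed genes, without HERC3, 2 rose and 26 fell with 2-77 (median log2 fold change -1.24), 1 rose and 24 fell with BD98 (-0.74), 1 rose and 25 fell with P-16 (-0.90), and 1 rose and 26 fell with ENZA (-1.16). With ACBI 17 rose and 9 fell (0.52). Over all genes tested the medians lay between -0.01 and 0.00. KLK2, a kallikrein protease gene, averaged 47.9 ± 2.69 CPM in 2-77 libraries and 596 ± 11.4 CPM in DMSO libraries (-3.64 ± 0.040, edgeR adjusted p = 2.35e-32), so it changed by more than HERC3. PMEPA1, which dampens TGF-beta signalling, fell with P-16 (-2.04 ± 0.037, edgeR adjusted p = 2.65e-26) and ENZA (-2.28 ± 0.037, edgeR adjusted p = 3.51e-28). SLC45A3, a membrane transporter gene, fell with BD98 (-2.02 ± 0.050, edgeR adjusted p = 3.14e-22). With ACBI, KLK2 fell (-4.17 ± 0.042, edgeR adjusted p = 1.00e-33) and FKBP5, which encodes a partner of HSP90, rose (2.07 ± 0.042, edgeR adjusted p = 8.67e-27), while HERC3 passed in neither direction.

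**Figure D2:**
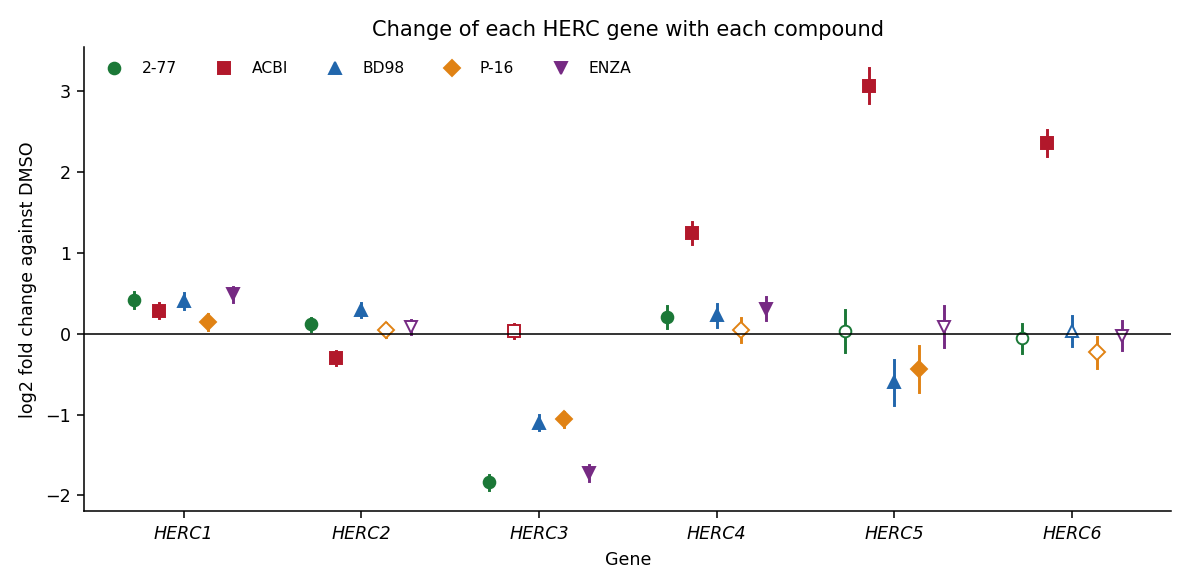
Log2 fold change of each HERC gene against DMSO (vertical axis) with its 95% interval, for the 5 compounds; filled symbols have an adjusted p under 0.05 and open ones do not. HERC3 lay between -1.84 and -1.06 for 4 compounds and at 0.03 for ACBI, and HERC4, HERC5 and HERC6 stood at 1.24, 3.07 and 2.36 for ACBI.

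HERC5, the ISG15 ligase, was a low transcript in every group except ACBI. It had 4.83, 5.27 and 4.39 CPM in 2-77 libraries, 38.5, 39.5 and 40.6 CPM in ACBI libraries, 3.61, 2.73 and 2.91 CPM in BD98 libraries, 3.09, 3.76 and 3.63 CPM in P-16 libraries, 4.37, 4.94 and 5.70 CPM in ENZA libraries, and 4.60, 4.25 and 5.21 CPM in DMSO libraries. The 3 ACBI libraries lay far above all others, the BD98 and P-16 libraries lay below DMSO without overlap, and the 2-77 and ENZA libraries overlapped DMSO. HERC5 rose 8.39-fold with ACBI (3.07 ± 0.10, edgeR adjusted p = 3.46e-21), the 62nd largest rise of 15422 genes. It fell 1.52-fold with BD98 (-0.60 ± 0.14, edgeR adjusted p = 0.000544) and 1.35-fold with P-16 (-0.44 ± 0.14, edgeR adjusted p = 0.0188). The P-16 call was lost without P-16 replicate 1 (-0.34, edgeR adjusted p = 0.117) and without DMSO replicate 3 (-0.34, edgeR adjusted p = 0.122). With 2-77 the difference was 0.04 ± 0.13 (edgeR adjusted p = 0.851), and with ENZA it was 0.09 ± 0.12 (edgeR adjusted p = 0.631).

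HERC6, the closest relative of HERC5, rose with ACBI and was called with no other compound. Its levels were 11.5, 9.50 and 10.6 CPM in 2-77 libraries, 57.0, 57.9 and 55.0 CPM in ACBI libraries, 11.1, 11.2 and 11.5 CPM in BD98 libraries, 9.77, 8.88 and 9.43 CPM in P-16 libraries, 10.4, 10.8 and 11.4 CPM in ENZA libraries, and 10.7, 12.4 and 9.94 CPM in DMSO libraries. The ACBI libraries stood above all others, the P-16 libraries lay just under DMSO, and those of 2-77, BD98 and ENZA overlapped DMSO. HERC6 rose 5.14-fold with ACBI (2.36 ± 0.078, edgeR adjusted p = 1.41e-21). With P-16 it differed by -0.23 ± 0.092 (edgeR adjusted p = 0.0669), and without DMSO replicate 3 that difference passed (-0.30, edgeR adjusted p = 0.0290). The other differences were -0.05 with 2-77 (edgeR adjusted p = 0.657), 0.03 with BD98 (edgeR adjusted p = 0.778) and -0.02 with ENZA (edgeR adjusted p = 0.875).

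The remaining genes of ISG15 conjugation stand beside HERC5 and HERC6 as the enzymes that feed or undo the same step. Of 6 listed genes other than these members, 4 rose and 0 fell with 2-77, 3 rose and 3 fell with ACBI, 4 rose and 1 fell with BD98, 3 rose and 0 fell with P-16, and 4 rose and 0 fell with ENZA. UBA7, the enzyme that activates ISG15, averaged 0.969 ± 0.291 CPM in ACBI libraries, 13.2 ± 0.712 CPM in BD98 libraries and 3.52 ± 0.735 CPM in DMSO libraries. It fell with ACBI (-1.87 ± 0.22, edgeR adjusted p = 1.18e-08) and rose with BD98 (1.91 ± 0.16, edgeR adjusted p = 2.94e-11). UBA7 also rose, by less, with 2-77 (0.89 ± 0.16, edgeR adjusted p = 6.13e-05), P-16 (0.69 ± 0.17, edgeR adjusted p = 0.00332) and ENZA (0.88 ± 0.16, edgeR adjusted p = 7.92e-05). UBE2L6, the enzyme that carries ISG15 to the ligase, fell with ACBI (-0.61 ± 0.20, edgeR adjusted p = 0.00867) and rose with 2-77 (1.14 ± 0.17, edgeR adjusted p = 3.44e-06), BD98 (1.23 ± 0.17, edgeR adjusted p = 9.11e-07), P-16 (0.56 ± 0.18, edgeR adjusted p = 0.0241) and ENZA (0.96 ± 0.18, edgeR adjusted p = 6.15e-05). UBE2L6 was a low transcript, at 1.73 ± 0.390 CPM in ACBI and 2.69 ± 0.846 CPM in DMSO libraries. So with ACBI the transcript of the ligase HERC5 rose and the low transcripts of the activating and carrying enzymes fell. With BD98 and P-16 the reverse held for all 3, though the HERC5 call with P-16 depended on single libraries.

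ISG15 itself rose with ACBI (0.71 ± 0.068, edgeR adjusted p = 1.55e-10), BD98 (0.61 ± 0.069, edgeR adjusted p = 1.57e-08), 2-77 (0.33 ± 0.069, edgeR adjusted p = 0.000306) and ENZA (0.35 ± 0.069, edgeR adjusted p = 0.000163). With P-16 its difference was 0.16 ± 0.071 (edgeR adjusted p = 0.0990). USP18, the protease that removes ISG15, rose with ACBI (0.46 ± 0.090, edgeR adjusted p = 4.84e-05) and BD98 (0.37 ± 0.091, edgeR adjusted p = 0.00138). TRIM25, an antiviral RING ligase, fell with ACBI (-0.16 ± 0.033, edgeR adjusted p = 9.04e-05) and BD98 (-0.17 ± 0.033, edgeR adjusted p = 0.000117) and rose with ENZA (0.20 ± 0.033, edgeR adjusted p = 1.83e-05). Smaller rises of TRIM25 were called with 2-77 (0.11 ± 0.033, edgeR adjusted p = 0.00911) and P-16 (0.11 ± 0.033, edgeR adjusted p = 0.0182). ARIH1, a RING-between-RING ligase, was called with ACBI alone (0.41 ± 0.043, edgeR adjusted p = 7.48e-10).

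The wider list of interferon-stimulated genes holds ISG15, UBA7, UBE2L6 and USP18 too, and not HERC5 or HERC6. Of its 44 tested genes, 14 rose and 22 fell with ACBI (median -0.60), and 29 rose and 4 fell with BD98 (0.48). The counts were 8 and 4 with 2-77 (0.07), 5 and 2 with P-16 (0.01), and 9 and 6 with ENZA (0.09). With ACBI the listed genes ranged from -4.47 to 3.78, a range that holds the changes of HERC5 and HERC6. IFITM3, which blocks viral entry, averaged 19.5 ± 1.43 CPM in ACBI libraries and 59.8 ± 3.46 CPM in DMSO libraries (-1.62 ± 0.062, edgeR adjusted p = 5.56e-20). OAS3, a sensor of double-stranded RNA, also fell with ACBI (-1.15 ± 0.063, edgeR adjusted p = 3.73e-16), whereas HELZ2, a helicase gene, rose with ACBI (1.13 ± 0.056, edgeR adjusted p = 6.38e-17) and BD98 (0.97 ± 0.056, edgeR adjusted p = 1.90e-14). PARP9, which partners an antiviral ligase, rose with BD98 (0.67 ± 0.056, edgeR adjusted p = 4.47e-11), a compound with which HERC5 fell.

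Among 19 tested genes of interferon receptors and signalling, 8 rose and 0 fell with 2-77, 11 rose and 6 fell with ACBI, 11 rose and 1 fell with BD98, 1 rose and 0 fell with P-16, and 7 rose and 0 fell with ENZA. IRF9, the DNA-binding part of the factor that reads the interferon response element, averaged 23.6 ± 1.13 CPM in ACBI libraries and 6.97 ± 1.04 CPM in DMSO libraries (1.77 ± 0.11, edgeR adjusted p = 7.95e-15). IRF2, which acts on the same element, rose with ACBI (1.05 ± 0.083, edgeR adjusted p = 2.29e-12), as did the receptor kinase gene JAK2 (0.96 ± 0.081, edgeR adjusted p = 1.20e-11). Among the 6 that fell with ACBI, 3 were picked after their values were seen. The transcription factor gene IRF1 fell (-0.67 ± 0.16, edgeR adjusted p = 0.000546), as did TLR3, a receptor for double-stranded RNA (-2.03 ± 0.26, edgeR adjusted p = 5.53e-08). Both were low transcripts. IRF1 averaged 2.50 CPM in ACBI and 3.96 CPM in DMSO libraries, and TLR3 0.592 CPM in ACBI and 2.40 CPM in DMSO libraries. STING1, an adaptor of DNA sensing, averaged 0.0145 ± 0.0251 CPM in ACBI libraries and 1.14 ± 0.246 CPM in DMSO libraries (edgeR adjusted p = 2.52e-09), and is low in both.

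**Figure D3:**
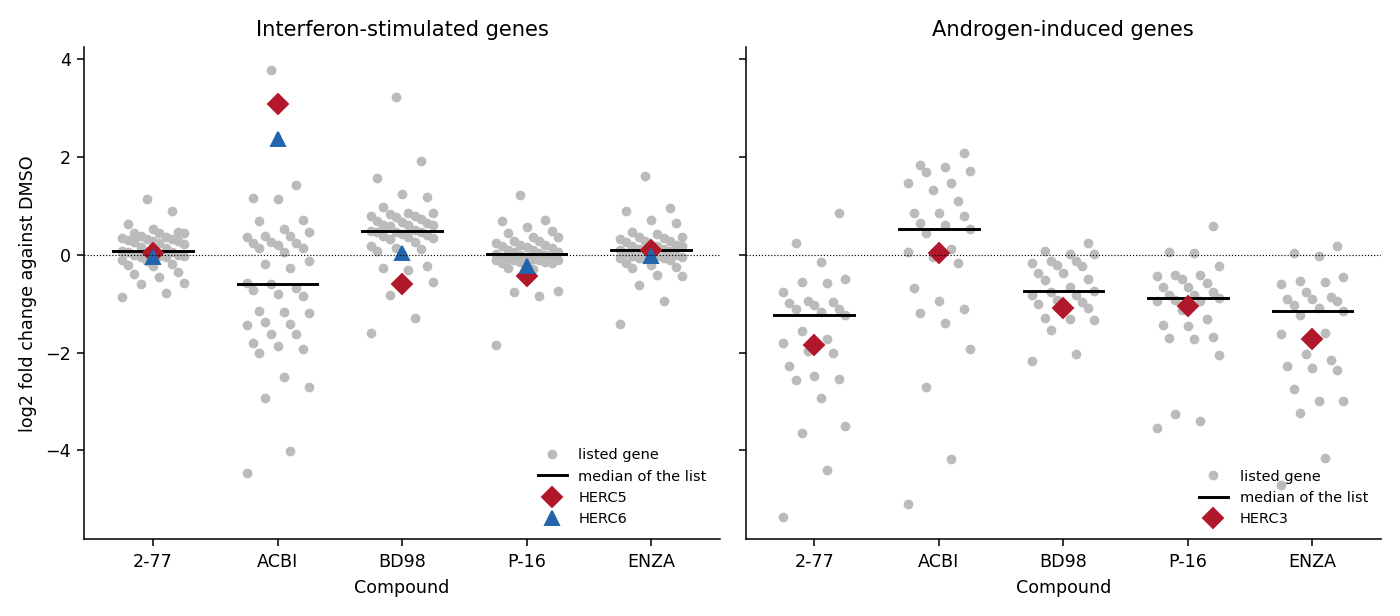
Log2 fold changes against DMSO of tested interferon-stimulated genes (44, left) and androgen-induced genes (29, right) for each compound; grey points are listed genes, the line is their median, and coloured symbols are HERC5 and HERC6 (left) or HERC3 (right), none of which is in the list. With ACBI, HERC5 at 3.07 and HERC6 at 2.36 lay far above the list median of -0.60. Both lay within the range of the listed genes with ACBI, -4.47 to 3.78. HERC3 and the androgen-induced median both lay below 0 with 2-77, BD98, P-16 and ENZA. With ACBI, HERC3 lay at 0.03 and the androgen-induced median at 0.52.

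HERC4, a small HERC whose loss in mouse impairs sperm maturation, rose most with ACBI, and by less with ENZA, BD98 and 2-77. It had 36.6, 36.4 and 38.0 CPM in 2-77 libraries, 72.2, 69.6 and 85.3 CPM in ACBI libraries, 39.2, 38.7 and 35.1 CPM in BD98 libraries, 33.6, 31.4 and 34.1 CPM in P-16 libraries, 40.3, 38.3 and 40.7 CPM in ENZA libraries, and 31.3, 34.0 and 30.8 CPM in DMSO libraries. The ACBI libraries stood above all others, with replicate 3 the highest of them, and only the P-16 libraries overlapped DMSO. HERC4 rose 2.37-fold with ACBI (1.24 ± 0.066, edgeR adjusted p = 2.18e-16), and by 1.16 on the log2 scale without ACBI replicate 3. It rose 1.24-fold with ENZA (0.31 ± 0.068, edgeR adjusted p = 0.000565), 1.17-fold with BD98 (0.23 ± 0.069, edgeR adjusted p = 0.00675) and 1.16-fold with 2-77 (0.21 ± 0.069, edgeR adjusted p = 0.0157). The BD98 call was lost without BD98 replicate 1 (edgeR adjusted p = 0.0527), and the 2-77 call without DMSO replicate 1 (edgeR adjusted p = 0.0570) or DMSO replicate 3 (edgeR adjusted p = 0.0767). With P-16 the difference was 0.04 ± 0.071 (edgeR adjusted p = 0.709). HERC4 lies at chr10:67921906-68075283 on the minus strand.

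HERC1, a giant ligase of membrane traffic that also binds the growth regulator TSC2, was higher with all 5 compounds. It had 107, 105 and 111 CPM in 2-77 libraries, 96.8, 101 and 96.5 CPM in ACBI libraries, 107, 102 and 109.9 CPM in BD98 libraries, 91.5, 85.0 and 90.9 CPM in P-16 libraries, 108, 114 and 117 CPM in ENZA libraries, and 76.2, 81.7 and 83.4 CPM in DMSO libraries. All 15 treated libraries lay above the 3 DMSO libraries. The rise was 1.40-fold with ENZA (0.49 ± 0.046, edgeR adjusted p = 6.67e-10), 1.34-fold with 2-77 (0.42 ± 0.046, edgeR adjusted p = 1.31e-08), 1.32-fold with BD98 (0.40 ± 0.046, edgeR adjusted p = 2.23e-08) and 1.22-fold with ACBI (0.28 ± 0.046, edgeR adjusted p = 3.04e-06). The smallest rise, 1.11-fold with P-16 (0.15 ± 0.047, edgeR adjusted p = 0.0209), did not pass without P-16 replicate 1 (edgeR adjusted p = 0.0872), P-16 replicate 3 (0.0765, edgeR) or DMSO replicate 1 (0.133, edgeR), nor with library totals as the scale (0.0640, edgeR). HERC1 lies at chr15:63608618-63833948 on the minus strand.

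HERC2, a giant ligase of the DNA damage response that also binds UBE3A, was lowest with ACBI and highest with BD98. It had 131, 132 and 138 CPM in 2-77 libraries, 104, 102 and 95.2 CPM in ACBI libraries, 152, 150.0 and 152 CPM in BD98 libraries, 121, 129 and 132 CPM in P-16 libraries, 130.0, 132 and 130.4 CPM in ENZA libraries, and 121, 123 and 126 CPM in DMSO libraries. ACBI libraries lay below DMSO, BD98 libraries lay above every other library, and P-16 libraries overlapped DMSO. HERC2 rose with BD98 (0.29 ± 0.041, edgeR adjusted p = 5.81e-07) and fell with ACBI (-0.30 ± 0.041, edgeR adjusted p = 1.64e-07). A small rise with 2-77 (0.12 ± 0.040, edgeR adjusted p = 0.0233) was lost without 2-77 replicate 3 (0.0977), DMSO replicate 1 (0.0839) or DMSO replicate 2 (0.0520, all edgeR adjusted p). The differences were 0.04 ± 0.041 with P-16 (edgeR adjusted p = 0.479) and 0.08 ± 0.041 with ENZA (edgeR adjusted p = 0.104).

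The HERC2 counts are uncertain, because the deposited row runs over chr15:22494851-28322179 on the plus strand. RefSeq puts HERC2 at chr15:28111040-28322179 on the minus strand, and near-identical pseudogene copies lie in between. The HERC2 row held 46.9% to 48.8% of the counts of HERC2 and its copies in ACBI libraries, 53.8% to 56.6% in libraries of the other compounds and 55.4% to 57.4% in DMSO libraries. HERC2P2, a transcribed copy, rose with 2-77 (0.30), ACBI (0.32), BD98 (0.54) and ENZA (0.24), with a highest edgeR adjusted p of 0.000852. The copies did not all move alike: with ACBI 3 of 5 tested listed copies rose, and HERC2P9 fell (-0.25 ± 0.076, edgeR adjusted p = 0.00471). With all copies summed, the fall with ACBI was -0.07 ± 0.034 and no longer passed (edgeR adjusted p = 0.0805), while a rise with ENZA did (0.11, edgeR adjusted p = 0.00897). The rise with BD98 passed either way.

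Of 21 listed partners and substrates of the 2 giant ligases, 2 rose and 4 fell with 2-77, 6 rose and 9 fell with ACBI, 6 and 2 with BD98, 2 and 4 with P-16, and 2 and 5 with ENZA. BRCA1, a DNA repair ligase that HERC2 targets, averaged 3.03 ± 0.242 CPM in ACBI libraries and 51.8 ± 1.97 CPM in DMSO libraries (-4.10 ± 0.081, edgeR adjusted p = 4.84e-27). BLM, a repair helicase gene, fell with ACBI too (-3.70 ± 0.17, edgeR adjusted p = 8.67e-18). With BD98, BARD1, the partner of BRCA1, fell (-0.55 ± 0.054, edgeR adjusted p = 6.54e-09) and USP20, a deubiquitinase that HERC2 controls, rose (0.40 ± 0.059, edgeR adjusted p = 2.23e-06).

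To compare the genes with each other, levels were divided by coding length, which is 14.583 kb for HERC1, 14.502 kb for HERC2, 3.15 kb for HERC3, 3.171 kb for HERC4, 3.072 kb for HERC5 and 3.066 kb for HERC6. Reads also come from bases outside the coding part, which this length leaves out. The transcripts used measure 4974 bases for HERC3 and 15137 for HERC1, so the scale favours HERC3. The uncertain HERC2 row enters the sums and shares as deposited. On this scale HERC3 was the highest of the family in every group. Its level was 15.2 CPM per coding kb in 2-77, 55.7 in ACBI, 25.4 in BD98, 26.1 in P-16, 16.5 in ENZA and 54.4 in DMSO libraries. The summed family was 48.5 ± 1.37 CPM per coding kb in 2-77, 125 ± 2.98 in ACBI, 59.7 ± 0.837 in BD98, 55.6 ± 2.15 in P-16, 51.0 ± 0.964 in ENZA and 83.7 ± 2.01 in DMSO libraries (SD, n = 3). HERC3 made up 31.3% of that sum in 2-77, 44.7% in ACBI, 42.5% in BD98, 46.9% in P-16, 32.3% in ENZA and 65.0% in DMSO libraries. HERC5 made up 10.3% in ACBI and 1.83% in DMSO libraries, and HERC6 14.8% in ACBI and 4.29% in DMSO libraries. Thus the sum fell below DMSO with 4 compounds, and with ACBI it was higher with the HERC3 level near that of DMSO.

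**Figure D4:**
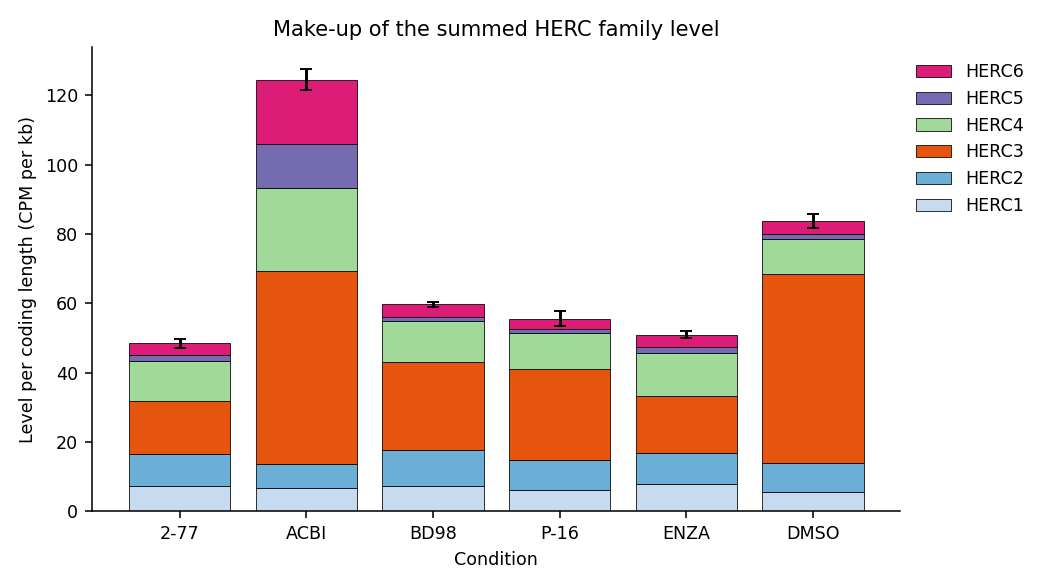
Summed level of the 6 HERC genes in CPM per kb of coding length, stacked by gene, as group means; error bars are the SD of the sum over 3 libraries. The ACBI bar is the tallest at 125 and the DMSO bar next at 83.7, and HERC3 is the largest block in each.

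Direct contrasts give the order of the other members. HERC5 was higher in ACBI libraries than in those of BD98 (3.67 ± 0.11), P-16 (3.50 ± 0.11) and ENZA (2.98 ± 0.10), and 2-77 against ACBI gave -3.03 ± 0.10. HERC6 gave 2.33 ± 0.076, 2.59 ± 0.079 and 2.39 ± 0.075 for ACBI against BD98, P-16 and ENZA, and -2.42 ± 0.075 for 2-77 against ACBI. HERC4 gave 1.01 ± 0.064, 1.20 ± 0.066 and 0.93 ± 0.063, and -1.03 ± 0.064. All 6 members were called in each contrast with ACBI, where the background was 70.2% of genes for 2-77 against ACBI, 69.6% for ACBI against BD98, 71.5% for ACBI against P-16 and 70.1% for ACBI against ENZA. The smallest of these differences was for HERC1, at -0.12 for ACBI against BD98 (edgeR adjusted p = 0.0194), a call that 6 of its alternatives removed.

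The lower pair of HERC5 levels also held between compounds. HERC5 was higher in 2-77 than in BD98 libraries (0.64 ± 0.13, edgeR adjusted p = 0.000218) and lower in BD98 than in ENZA libraries (-0.69 ± 0.13, edgeR adjusted p = 7.71e-05). It was lower in P-16 than in ENZA libraries at the same dose (-0.52 ± 0.13, edgeR adjusted p = 0.00393). For 2-77 against P-16 it was 0.47 ± 0.13 (edgeR adjusted p = 0.00902), which did not pass without P-16 replicate 1 (0.38, edgeR adjusted p = 0.0721). BD98 and P-16 did not pass against each other (-0.17, 95% interval -0.46 to 0.13, edgeR adjusted p = 0.366). HERC2 was higher in BD98 libraries than in those of P-16 (0.25 ± 0.040, background 43.6%) and ENZA (0.21 ± 0.040, background 42.5%), and 2-77 against BD98 gave -0.18 ± 0.040 (background 42.0%).

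Of the 6 genes, 3 were called for 2-77 against BD98 (background 42.0%) and 3 for 2-77 against P-16 (background 22.4%). For BD98 against P-16 there were 4 (2 without P-16 replicate 2, background 43.6%). There were 3 for BD98 against ENZA (background 42.5%) and 4 for P-16 against ENZA (background 21.4%).

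Between 2-77 and ENZA, 0 of 6 HERC genes were called by edgeR, where 5.54% of all genes were, and DESeq2 also called 0. HERC3 alone had an unadjusted edgeR p under 0.05, at 0.0211. The differences, with 95% intervals, were -0.07 (-0.16 to 0.02) for HERC1, 0.03 (-0.05 to 0.11) for HERC2, -0.10 (-0.24 to 0.03) for HERC4, -0.05 (-0.29 to 0.19) for HERC5 and -0.03 (-0.21 to 0.14) for HERC6. These intervals leave room for differences of that size, at doses of 1 µM and 10 µM.

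The chromosome 4 cluster did not move as a block with ACBI, 2-77 or ENZA. HERC6 and HERC5 rose with ACBI while HERC3, the next HERC gene, did not change beyond its error. With 2-77 and ENZA HERC3 fell while the other 2 passed in neither direction. HERC3 and HERC5 both fell with BD98 (-1.10 and -0.60) and with P-16 (-1.06 and -0.44, the HERC5 call depending on single libraries). HERC6 was called with neither of these (0.03 with BD98, -0.23 with P-16), though its P-16 libraries lay below DMSO. Outside the cluster, PPM1K, a mitochondrial phosphatase gene on the HERC6 side, rose with ACBI (0.95 ± 0.085, edgeR adjusted p = 8.03e-10) and fell with BD98 (-0.73 ± 0.094, edgeR adjusted p = 7.97e-07). Smaller falls of PPM1K were called with 2-77 (-0.25 ± 0.090, edgeR adjusted p = 0.0329) and P-16 (-0.29 ± 0.092, edgeR adjusted p = 0.0255). PKD2, an ion channel gene, rose with ACBI (0.53 ± 0.078, edgeR adjusted p = 4.91e-07) and BD98 (0.29 ± 0.079, edgeR adjusted p = 0.00274). On the HERC3 side FAM13A, a gene with a GTPase-activating domain, rose with 2-77 (0.96), ACBI (0.29), BD98 (1.15), P-16 (0.61) and ENZA (0.78), with a highest edgeR adjusted p of 6.08e-07. FAM13A averaged 167 ± 6.65 CPM in 2-77 libraries and 85.7 ± 0.949 CPM in DMSO libraries, opposite in direction to HERC3.

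NAP1L5, an imprinted gene inside HERC3 on the opposite strand, also rose with 2-77 (0.73), ACBI (0.85), BD98 (0.60), P-16 (0.49) and ENZA (0.78), with a highest edgeR adjusted p of 0.00381. The kit kept strand, and whether counting used it is not given in the sources used here, so reads of HERC3 and NAP1L5 may not be fully separated. NAP1L5 averaged 6.24 ± 0.736 CPM in DMSO libraries, far below HERC3. PIGY and PYURF, 2 proteins made from one transcript just before HERC3, carried the same counts in 18 of 18 libraries and fell with 2-77 (-0.29 ± 0.045, edgeR adjusted p = 4.35e-06), BD98 (-0.29 ± 0.046, edgeR adjusted p = 4.99e-06), P-16 (-0.15 ± 0.045, edgeR adjusted p = 0.0131) and ENZA (-0.18 ± 0.045, edgeR adjusted p = 0.00231). With ACBI they rose (0.15 ± 0.044, edgeR adjusted p = 0.00470). TIGD2 was called with no compound (differences -0.06 with 2-77, 0.03 with ACBI, 0.04 with BD98, -0.02 with P-16 and 0.03 with ENZA, lowest edgeR adjusted p 0.489). ABCG2, a drug efflux pump gene, averaged at most 0.629 CPM in any group and is not read further. Of 11 tested genes listed in and beside the cluster, the HERC genes and PYURF included, 3 rose and 4 fell with 2-77, 8 and 1 with ACBI, 3 and 5 with BD98, 3 and 5 with P-16, and 3 and 3 with ENZA.

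**Figure D5:**
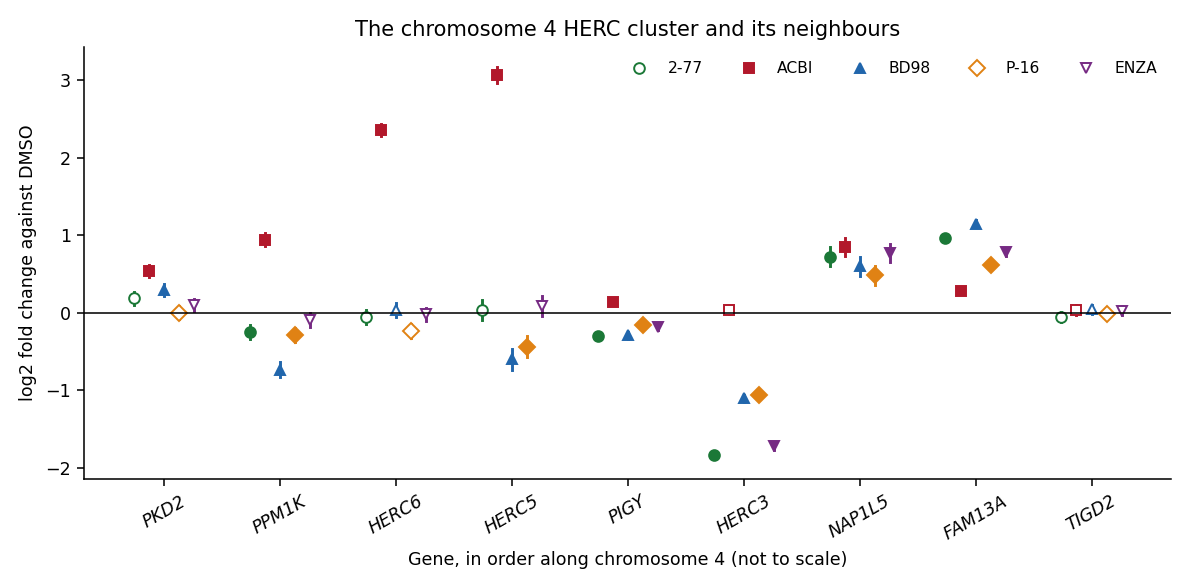
Log2 fold change against DMSO with its standard error for genes in their order along chromosome 4 (spacing not to scale), by compound; filled symbols have an adjusted p under 0.05. HERC6 and HERC5 reach 2.36 and 3.07 with ACBI, against 0.03 for HERC3, and FAM13A lies above 0 for all 5 compounds where HERC3 lies below it for 4.

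Genes related by their domains were also counted. Of 19 other HECT ligases, 5 rose and 2 fell with 2-77, 13 rose and 2 fell with ACBI (median 0.40), 9 and 4 with BD98, 6 and 1 with P-16, and 7 and 3 with ENZA. WWP1, a ligase of the NEDD4 group, averaged 248.9 ± 16.3 CPM in ACBI libraries and 86.6 ± 1.67 CPM in DMSO libraries (1.52 ± 0.051, edgeR adjusted p = 2.12e-21), a larger change than that of HERC4. HECTD4 rose with ACBI too (1.34 ± 0.053, edgeR adjusted p = 2.12e-17). HECTD2 fell with BD98 (-1.16 ± 0.12, edgeR adjusted p = 2.48e-09) and rose with 2-77 (0.48), ACBI (0.30), P-16 (0.36) and ENZA (0.97), with a highest edgeR adjusted p of 0.0103 among these rises. Of 14 other genes with RCC1-like repeats, 3 rose and 5 fell with 2-77, 7 and 4 with ACBI, 4 and 4 with BD98, 1 and 3 with P-16, and 4 and 5 with ENZA. RCC2, a mitotic member, fell with ACBI (-1.56 ± 0.044, edgeR adjusted p = 3.12e-23).

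The genes most like each member over the 18 libraries are given as a description, since the libraries share their groups and the ACBI libraries stand apart. Nearest to HERC3 by Pearson correlation of log2 CPM were TAOK3 (r = 0.98), GNMT (0.97), HOMER2 (0.97), ALDH1A3 (0.97) and MYCBP2 (0.97), of which GNMT is on the androgen-induced list and MYCBP2 on the RCC1-like list. Nearest to HERC5 were CPE (0.99), RMDN1 (0.99), VTI1B (0.99), BAIAP2L1 (0.99) and RAB6A (0.99), and to HERC6 LRRC28 (1.00 after rounding), PFKFB2 (0.99) and ATXN2 (0.99). RABGAP1L (0.99) and DMXL1 (0.99) came first for HERC4, PTPN14 (0.95) and TNRC6B (0.94) for HERC1, and MICAL2 (0.98) and MLLT6 (0.98) for HERC2. Within the family HERC5 and HERC6 were most alike (r = 0.97), then HERC4 and HERC6 (0.96) and HERC4 and HERC5 (0.93). HERC2 and HERC5 were most opposed (-0.88), and HERC1 and HERC3 came to -0.70.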

How the data were processed

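The values deposited by the authors are expected counts (estimated reads of each gene in each library, with decimals and unscaled), made from stranded messenger RNA libraries. The submitters' processing notes name STAR, Partek, DESeq2 and hg38 without versions. The program that assigned reads to genes and its annotation are not given in the sources used here. The SCO277 columns are read as 2-77 and the PB_16 columns as P-16 (PB16 in the labels).

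After rounding, edgeR 4.0.16 (R 4.3.3) was used: filterByExpr left 15422 genes and removed 4723, library sizes were scaled by TMM, and a robust quasi-likelihood model of all 18 libraries (12 residual degrees of freedom) gave two-sided tests of 15 contrasts, adjusted by Benjamini-Hochberg over all genes of a contrast, with a threshold of 0.05. The common biological coefficient of variation was 0.0573. Intervals are 95% and cover the spread between these libraries only. CPM values use the scaled libraries, and levels between genes use the longest coding sequence in GENCODE 29, in place of the protein length planned. Promoter windows came from RefSeq (GRCh38.p14), in which all 6 genes matched by symbol. The fit was tested on simulated data. Correlations use a pseudocount of 0.5 CPM.

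Same-number libraries of different groups were not paired: 1 of 45 pairs had residuals correlated above 0.1. Alternatives were DESeq2 1.42.0, RLE factors, library totals, no filter or a stricter filter, a replicate block, no ribosomal RNA, only the 2 groups compared, and each library left out. Summing HERC2 with its copies, and leaving out libraries in contrasts between compounds, were added after the data were seen. The members and gene lists, from textbook knowledge, were chosen with earlier results of these data known, so list counts are descriptions with no test. The rule for naming genes took the members, the called genes with the 4 smallest p in each list and contrast, all measured genes of the chromosome 4 and ISG15 lists, and the 5 genes most correlated with each member, passing over clone and locus names. Not all are printed, and some items are not reported here. Genes of the lists that were not in the table or had too few counts were not analysed here. Plots used matplotlib 3.10.9 (Python 3.11.15).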

Additional observations from a re-analysis of the deposited data

How the results depend on the processing

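Of 450 recomputed log2 fold changes of HERC genes against DMSO, 435 kept their side of the threshold, 13 lost the call and 2 gained it. Between compounds these numbers were 883, 15 and 2 of 900. Some changes that were not called switched sign, among them HERC5 with 2-77 (-0.03 to 0.13) and HERC6 with ENZA (-0.10 to 0.07). The calls of HERC3, HERC5 and HERC6 held where they were largest: under all alternatives HERC3 with 2-77 stayed between -1.87 and -1.81 and with ENZA between -1.75 and -1.70, HERC5 with ACBI between 3.00 and 3.16, and HERC6 with ACBI between 2.29 and 2.46. The number of members called was within 1.5 times the main number under every alternative but the removal of single libraries. There it ranged from 2 (without DMSO replicate 1) to 4 for 2-77 against DMSO, from 1 (without P-16 replicate 1) to 3 for P-16 against DMSO, and from 2 (without P-16 replicate 2) to 4 for BD98 against P-16. With the replicate block the members called against DMSO were 4 with 2-77, 5 with ACBI, 5 with BD98, 3 with P-16 and 3 with ENZA, as without it. Summing HERC2 with its copies removed its call with ACBI, as given with that gene. Between compounds, HERC1 in ACBI against P-16 lost its call under 2 alternatives, HERC4 in BD98 against P-16 under 4, DESeq2 among them, and HERC6 in BD98 against P-16 under 2. With library totals in place of TMM the median of all genes in ACBI against BD98 moved to -0.13, and all 6 HERC calls there held. HERC5 outside the ACBI libraries had 48 to 182 counts per library, which limits what could be detected for it. The cause of these losses was not tested.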
